A study of Homo sapiens with 12 samples.

Results

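The difference in response to PRKDC knockdown between an Ewing sarcoma line, TC32, and a colorectal carcinoma line, HCT116, was measured for each gene as the change in TC32 minus the change in HCT116. The 4 groups held 3 samples each: TC32 with siPRKDC (an siRNA against PRKDC), TC32 with siNeg (a negative control siRNA), HCT116 with siPRKDC and HCT116 with siNeg, all at 20 nM for 48 h. Of 10386 genes fitted on an Illumina HumanHT-12 v4 expression array, 6951 were described, namely those whose probe had a detection p-value below 0.05 on all 12 arrays. This choice used how bright a probe was on every array and did not use the difference in response between the lines. Genes not detected on every array of 1 line were thereby left out. Among them were the HCT116 markers EPCAM and KRT19 and the TC32 markers NKX2-2 and PRKCB. The counts of genes called in 1 line alone do not cover such genes. TC32 was grown in RPMI-1640 and HCT116 in DMEM, both with FBS, so line and medium cannot be told apart. Each tumour type was represented by 1 line. How many siRNAs made up siPRKDC, and their sequences, were not given in the sources used here, so effects through other transcripts cannot be told apart from those through PRKDC. Nothing in the labels says that replicates came from separate cultures, so p-values measured the spread among the deposited samples only, and that spread may be technical.

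PRKDC encodes the catalytic subunit of the DNA-dependent protein kinase, a large kinase of the PI3K-like family. With the Ku proteins it holds broken DNA ends together during non-homologous end joining, the main route by which human cells rejoin double-strand breaks outside S phase. Ewing sarcoma cells are driven by a fusion of EWSR1 with an ETS gene, usually FLI1, whose product, EWS-FLI1, activates one set of genes and represses another. HCT116 is a mismatch repair-deficient line with epithelial features and wild-type p53.

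All values are log2 intensities after background correction and quantile normalization over the 12 arrays, and the tests are those of limma with p-values adjusted over all 10386 genes. Between 15396 and 16216 probes per array were detected in TC32 siPRKDC samples, against 16324 to 16603 in TC32 siNeg samples. HCT116 siPRKDC samples had 17101 to 18153 detected probes, against 17658 to 17740 in HCT116 siNeg samples. Of 8 markers of each line, 7 were fitted for TC32 and all 7 were higher in TC32 under siNeg, while all 8 HCT116 markers were higher in HCT116. None of 11 defining markers of blood, endothelial or fibroblast cells passed the filter on dim probes, and of a wider list of 17 such markers 3 passed it and 1, CD68, was detected on all 12 arrays, with no called change or difference. At the edge of the choice, CARMIL1 and CTIF lay just inside with a highest detection p of 0.0494, and COG8 and FUBP1 just outside with 0.0507.

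The lines answered siPRKDC differently over much of the transcriptome. The difference was called for 2398 of the 6951 genes (34.5%), 1395 of them more positive in TC32 (20.1%) and 1003 more negative (14.4%). The absolute difference was at least 1 on the log2 scale in 261 genes (3.75%), 116 more positive (1.67%) and 145 more negative in TC32 (2.09%), and in 4553 genes (65.5%) no difference was called. The excess of positive calls depended on the scaling: cyclic loess gave 1176 positive and 1158 negative calls, and median scaling 1234 and 1132. The count of differences of at least 1 was 52 without background correction, 78 with a larger offset and 49 in the authors' deposited log2 values. TC32 had the wider response: 3390 genes (48.8%) were called there, 1839 up (26.5%) and 1551 down (22.3%), against 1490 in HCT116 (21.4%), 630 up (9.06%) and 860 down (12.4%). Across the 6951 genes the SD of the log2 change was 0.434 in TC32 and 0.265 in HCT116, and the changes in the lines correlated with Pearson's r = 0.227 and Spearman's rho = 0.184. These are correlations across genes, which are not independent replicates. The median SD over replicates was 0.103 in TC32 siPRKDC, 0.116 in TC32 siNeg, 0.101 in HCT116 siPRKDC and 0.0994 in HCT116 siNeg samples.

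The called differences fell into kinds by what each line did alone. In 1556 genes (22.4%) the change was called in TC32 and not in HCT116, and in 339 (4.88%) it was called in HCT116 and not in TC32. In 251 genes (3.61%) both changes were called with opposite signs, 139 up in TC32 (2%) and 112 down in TC32 (1.61%). Another 124 genes (1.78%) moved the same way in both lines to unequal extents, and in 128 (1.84%) neither line's own change was called. Among all 855 genes called in both lines, 268 rose in both, 336 fell in both and the 251 with opposite signs made up 29.4%. Dim genes were called less often: with genes divided into 3 equal bins of mean level, 27%, 38.1% and 38.5% were called from the dimmest bin to the brightest.

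**Figure D1:**
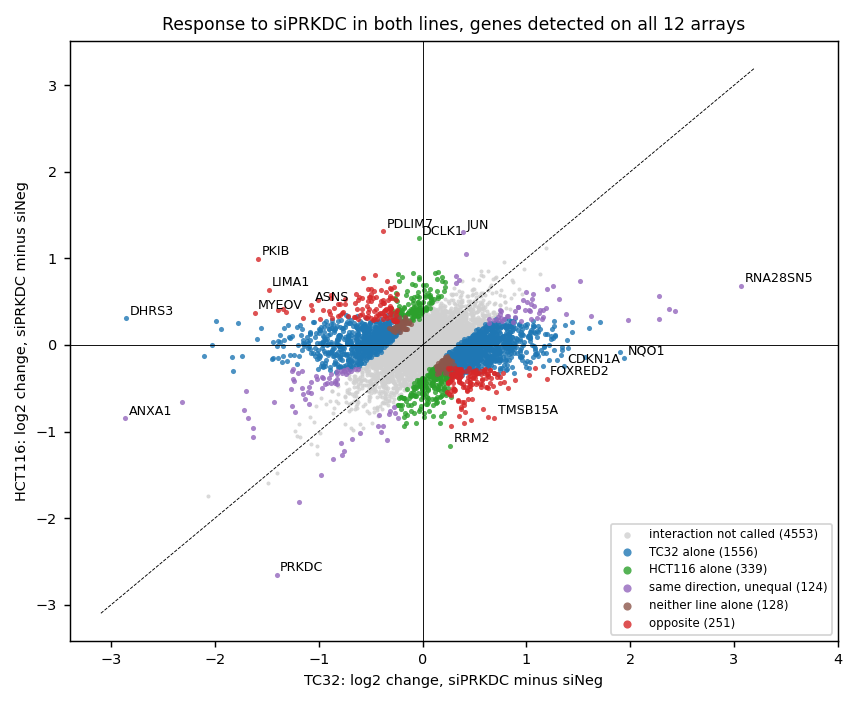
Each point is 1 of the 6951 genes. The horizontal axis is the log2 change in TC32 and the vertical axis the log2 change in HCT116 (siPRKDC minus siNeg, means of 3 samples each). Colours mark the kinds of difference with their number of genes, and the dashed line marks equal change. The cloud is wider along the TC32 axis (SD 0.434) than along the HCT116 axis (SD 0.265), and the 251 genes with opposite signs lie in the upper left and lower right.

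PRKDC fell in both lines and fell further in HCT116 by its brightest probe. Its log2 intensity was 5.21, 5.03 and 5.66 with siPRKDC against 6.61, 6.61 and 6.90 with siNeg in TC32, and 4.48, 4.51 and 4.79 with siPRKDC against 7.28, 7.42 and 7.05 with siNeg in HCT116. In both lines all siPRKDC values were the low ones, without overlap. The log2 change was -1.41 in TC32 (2.65-fold lower, SE 0.14) and -2.66 in HCT116 (6.31-fold lower, SE 0.14), with a difference of 1.25 (SE 0.20, adjusted p = 4.59e-05). The other PRKDC probes, which were not detected on all 12 arrays, gave changes of -0.86 and -0.92 in TC32 and -0.78 and -0.73 in HCT116, and differences of -0.08 and -0.19. With the mean of all kept probes the difference was 0.33 and was not called (adjusted p = 0.0596). The extent of knockdown thus differed between the lines on 1 of 3 probes, the only one detected on all 12 arrays. The others had called falls in each line but were not told apart from background on some arrays, so they cannot settle the extent. The brightest probe was itself dim in HCT116 siPRKDC samples (4.48, 4.51 and 4.79). The part of the extent of knockdown in the other differences was not tested.

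EWSR1, which supplies the first part of the Ewing sarcoma fusion, moved in opposite directions on its brightest probe. Whether its probes read the part kept in the fusion was not tested. It read 7.91, 8.15 and 8.12 with siPRKDC against 7.80, 7.89 and 7.76 with siNeg in TC32, and 8.25, 8.22 and 8.23 with siPRKDC against 8.78, 8.68 and 8.57 with siNeg in HCT116. The siPRKDC samples were the higher ones in TC32 and the lower ones in HCT116, with no overlap in either line. The changes were 0.25 in TC32 (adjusted p = 0.0404) and -0.44 in HCT116 (adjusted p = 0.00187), and the difference was 0.69 (SE 0.13, adjusted p = 0.000449). Both other EWSR1 probes also gave a called difference, of 0.46 and 0.66, although neither had a called change in HCT116 (-0.20 and -0.15). FLI1 was not detected on all 12 arrays. Its change was 0.15 in TC32 and -0.09 in HCT116, and the difference of 0.24 was not called (adjusted p = 0.355).

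Among genes that rose in TC32 and fell in HCT116, FOXRED2 had the largest absolute difference. The genes with the largest opposite changes were named only if siPRKDC and siNeg values did not overlap in either line. Their lack of overlap was thus a condition of naming and not a result. FOXRED2, an oxidoreductase that acts in degradation of misfolded proteins of the endoplasmic reticulum, read 7.52, 7.46 and 7.44 with siPRKDC against 6.42, 6.18 and 6.23 with siNeg in TC32, and 5.84, 5.70 and 5.69 with siPRKDC against 6.25, 6.14 and 6.02 with siNeg in HCT116. Its siPRKDC values lay above siNeg in TC32 and below it in HCT116, without overlap. The changes were 1.19 in TC32 and -0.39 in HCT116, with a difference of 1.58 (SE 0.14, adjusted p = 1.65e-08). A second FOXRED2 probe rose in TC32 alone (0.66, against 0.01 in HCT116, difference 0.65). TMSB15A, a thymosin that binds monomeric actin, read 9.17, 9.17 and 9.27 with siPRKDC against 8.49, 8.46 and 8.59 with siNeg in TC32, and 7.78, 7.84 and 7.96 with siPRKDC against 8.82, 8.60 and 8.69 with siNeg in HCT116. Here too neither line's groups overlapped, with changes of 0.69 in TC32 and -0.84 in HCT116 (difference 1.54, SE 0.13, adjusted p = 1.51e-08). EGR1, an immediate early zinc finger factor, read 6.72, 6.82 and 6.61 with siPRKDC against 6.14, 6.10 and 6.01 with siNeg in TC32, and 6.83, 6.62 and 6.67 with siPRKDC against 7.60, 7.52 and 7.51 with siNeg in HCT116. The siPRKDC samples of both lines had overlapping levels, whereas TC32 siNeg samples were low and HCT116 siNeg samples high. The log2 changes were 0.63 in TC32 and -0.84 in HCT116. The difference was 1.47 (SE 0.13, adjusted p = 3.52e-08).

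TK1, the thymidine kinase of S-phase cells, read 7.12, 6.93 and 6.83 with siPRKDC against 6.37, 6.63 and 6.48 with siNeg in TC32, and 8.01, 7.88 and 7.82 with siPRKDC against 8.75, 8.77 and 8.80 with siNeg in HCT116. Its groups did not overlap in either line, and it had log2 changes of 0.47 in TC32 and -0.87 in HCT116 (difference 1.34, adjusted p = 3.1e-07). ASF1B, a histone chaperone of replicating chromatin, had log2 changes of 0.40 in TC32 and -0.90 in HCT116 (difference 1.30). CEP131, a protein of centriolar satellites, had log2 changes of 1.08 in TC32 and -0.26 in HCT116, and SPECC1L, which links actin and microtubules, of 0.89 in TC32 and -0.41 in HCT116. The dimmer SPECC1L probe was called in TC32 alone (0.48, against -0.03 in HCT116). UBE2Q1, a ubiquitin-conjugating enzyme, had log2 changes of 1.03 in TC32 and -0.34 in HCT116, and NMT1, which attaches myristate to proteins, of 0.83 in TC32 and -0.49 in HCT116. BIRC5, the inhibitor of apoptosis called survivin, had log2 changes of 0.58 in TC32 and -0.74 in HCT116 on its brightest probe. Its other probe gave -0.09 in TC32 and -0.22 in HCT116, with a difference of 0.13 that was not called (adjusted p = 0.69).

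Among genes that fell in TC32 and rose in HCT116, PKIB had the largest absolute difference. PKIB, an inhibitor of the cAMP-dependent protein kinase, read 5.22, 5.46 and 5.42 with siPRKDC against 6.89, 6.93 and 7.02 with siNeg in TC32, and 5.92, 5.92 and 5.81 with siPRKDC against 4.92, 4.81 and 4.92 with siNeg in HCT116. All siPRKDC values were low in TC32 and high in HCT116 relative to siNeg. It had log2 changes of -1.58 in TC32 and 1.0 in HCT116 (difference -2.58, SE 0.13, adjusted p = 6.55e-12). LIMA1, an actin-bundling protein, read 6.36, 6.39 and 5.98 with siPRKDC against 7.79, 7.86 and 7.53 with siNeg in TC32, and 7.04, 6.92 and 6.60 with siPRKDC against 6.18, 6.24 and 6.24 with siNeg in HCT116. Its groups were apart in both lines, although 1 siPRKDC sample lay below the other two in each line, and it had log2 changes of -1.48 in TC32 and 0.63 in HCT116 (difference -2.12, SE 0.17, adjusted p = 9.61e-09). PDLIM7, a scaffold protein of actin filaments, read 5.99, 6.05 and 5.89 with siPRKDC against 6.41, 6.41 and 6.25 with siNeg in TC32, and 6.47, 6.64 and 6.44 with siPRKDC against 5.32, 5.09 and 5.19 with siNeg in HCT116. The groups did not overlap in either line (changes of -0.38 in TC32 and 1.31 in HCT116, difference -1.70, adjusted p = 6.72e-09). On its dimmer probe the PDLIM7 difference was smaller (-0.39, adjusted p = 0.048), and neither line's own value was called (-0.19 in TC32 and 0.20 in HCT116).

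ASNS, the asparagine synthetase, read 7.66, 7.83 and 7.89 with siPRKDC against 8.97, 8.94 and 8.69 with siNeg in TC32, and 8.67, 8.86 and 8.74 with siPRKDC against 8.40, 8.31 and 8.16 with siNeg in HCT116. Its siPRKDC samples were the low ones in TC32 and the high ones in HCT116. It had log2 changes of -1.07 in TC32 and 0.46 in HCT116 (difference -1.54, SE 0.15, adjusted p = 7.4e-08), while its other probe fell in TC32 as well (-1.08) and gave 0.09 in HCT116, where it was not called. ASS1, which makes argininosuccinate in arginine synthesis, had log2 changes of -1.0 in TC32 and 0.52 in HCT116, and its second probe detected on all 12 arrays gave -1.49 and 0.58. A further, dimmer ASS1 probe was called in TC32 alone (-0.43, against 0.11 in HCT116). CAMK2N1, an inhibitor of calmodulin-dependent kinase II, had log2 changes of -1.39 in TC32 and 0.40 in HCT116. LYN, a Src family kinase, had log2 changes of -1.06 in TC32 and 0.40 in HCT116, and MLKL, the effector of necroptosis, of -1.35 in TC32 and 0.42 in HCT116. SOCS2, a suppressor of cytokine signalling, had log2 changes of -1.31 in TC32 and 0.38 in HCT116, and its other probe was called in TC32 alone (-1.0, against 0.16 in HCT116). MYEOV had log2 changes of -1.62 in TC32 and 0.37 in HCT116. Over all 251 genes with opposite signs the median absolute change was 0.45 in TC32 and 0.40 in HCT116, and in 234 of them siPRKDC and siNeg values did not overlap in either line. Over all 6951 genes, 3853 had no overlap in TC32 (55.4%) and 2729 had none in HCT116 (39.3%), each line counted separately. No overlap in both lines at once was found in 840 of the 4553 genes without a called difference. The 251 genes were selected by calls in both lines, so their lack of overlap was largely set by that selection.

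**Figure D2:**
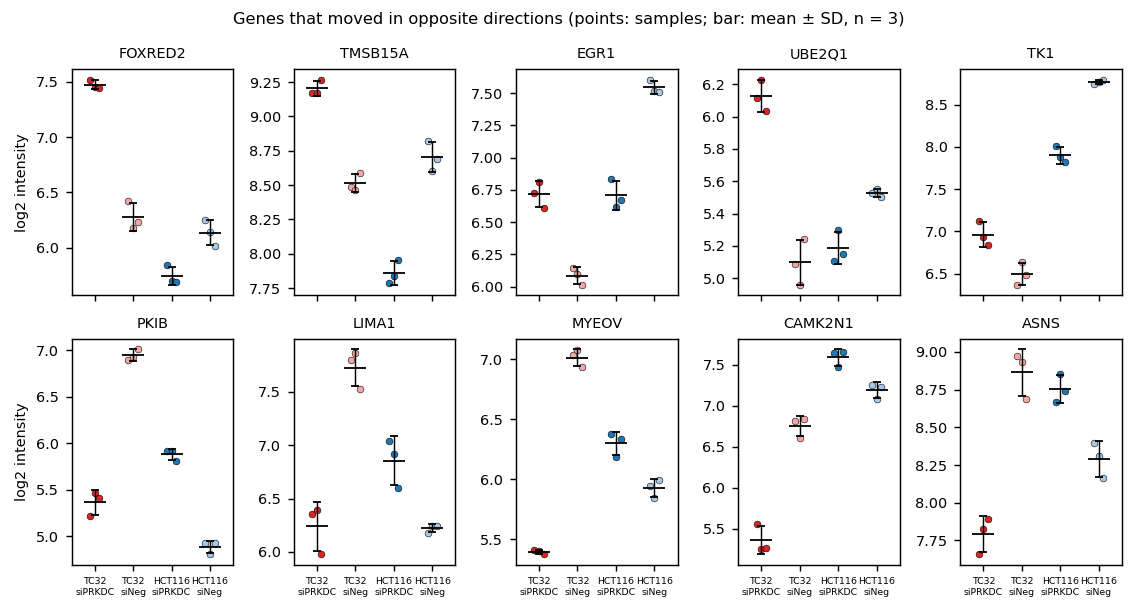
The log2 intensity of 10 genes with opposite changes is shown by sample, with the mean and SD (n = 3) of each group as bars. In the upper row siPRKDC lay above siNeg in TC32 and below it in HCT116, as for FOXRED2 (1.19 and -0.39). In the lower row the order was the reverse, as for PKIB (-1.58 and 1.0).

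Of the genes called in TC32 alone, 902 rose (13%) and 654 fell (9.41%). The largest of them were named only if their TC32 groups did not overlap. In 1493 of the 1556 the 95% interval of the HCT116 change lay within 0.5 of zero on the log2 scale. This follows largely from the lack of a call in HCT116. It does not show that HCT116 did not respond, as the median absolute change of genes called in HCT116 alone was 0.44. NQO1, a quinone oxidoreductase and a target of the transcription factor NRF2, read 8.95, 9.12 and 9.21 with siPRKDC against 7.09, 7.14 and 7.22 with siNeg in TC32, and 9.06, 9.02 and 8.89 with siPRKDC against 9.17, 9.20 and 9.06 with siNeg in HCT116. TC32 siPRKDC samples reached the level that HCT116 had in both groups. The change was 1.94 in TC32 and -0.15 in HCT116 (difference 2.10, SE 0.13, adjusted p = 2.59e-10). KLF2, a Krüppel-like factor, read 8.02, 7.86 and 8.0 with siPRKDC against 6.15, 6.06 and 5.95 with siNeg in TC32, and 8.80, 8.65 and 8.75 with siPRKDC against 8.77, 8.96 and 8.74 with siNeg in HCT116. Its TC32 groups were far apart and its HCT116 groups overlapped (changes of 1.91 in TC32 and -0.09 in HCT116, difference 1.99, adjusted p = 5.86e-10). CDKN1A, which encodes the cell cycle inhibitor p21, read 7.89, 7.89 and 7.86 with siPRKDC against 6.38, 6.42 and 6.75 with siNeg in TC32, and 10.26, 10.20 and 10.14 with siPRKDC against 10.52, 10.52 and 10.30 with siNeg in HCT116. It rose in TC32 by 1.36 without reaching HCT116 levels, and in HCT116, where siPRKDC samples lay slightly lower without overlap, its change of -0.25 was not called (adjusted p = 0.105). STIM2, a calcium sensor of the endoplasmic reticulum, had log2 changes of 1.56 in TC32 and -0.14 in HCT116, with a smaller called difference on its second probe (0.97). IER3, a stress-induced regulator of survival, had log2 changes of 1.30 in TC32 and -0.17 in HCT116, and CLCN7, a lysosomal chloride transporter, of 1.33 in TC32 and -0.12 in HCT116. GLCE, an epimerase of heparan sulphate synthesis, had log2 changes of 1.71 in TC32 and 0.27 in HCT116, and TPRG1L of 1.40 in TC32 and -0.03 in HCT116.

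DHRS3, a retinal reductase, had the most negative difference of the genes named in TC32 alone. It read 6.0, 6.50 and 5.75 with siPRKDC against 8.88, 9.08 and 8.87 with siNeg in TC32, and 6.67, 6.56 and 6.72 with siPRKDC against 6.36, 6.36 and 6.30 with siNeg in HCT116. The TC32 groups were apart by more than 2 units on the log2 scale, and the small shift in HCT116 was not called (0.31, adjusted p = 0.109). Its change in TC32 was -2.86 (difference -3.17, SE 0.19, adjusted p = 8.08e-11). TRAF3IP2, an adaptor of interleukin receptor signalling, read 6.0, 6.14 and 6.07 with siPRKDC against 8.12, 7.87 and 8.19 with siNeg in TC32, and 6.30, 6.41 and 6.37 with siPRKDC against 6.06, 6.21 and 5.97 with siNeg in HCT116. It fell by 1.99 in TC32, and its change of 0.28 in HCT116 was not called (adjusted p = 0.0567). BCL3, an IkB family protein that binds NF-kB, had log2 changes of -2.02 in TC32 and 0.00 in HCT116. HOOK1, a microtubule adaptor, had log2 changes of -1.94 in TC32 and 0.19 in HCT116, and KANK1, a regulator of actin at adhesions, of -1.78 in TC32 and 0.25 in HCT116. The long noncoding RNA OLMALINC had log2 changes of -2.10 in TC32 and -0.13 in HCT116, although its other probe also fell in HCT116 (-0.35). YPEL5 had log2 changes of -1.55 in TC32 and 0.19 in HCT116 and DBNDD2 of -1.84 in TC32 and -0.14 in HCT116.

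Genes called in HCT116 alone were mostly lower: 213 fell (3.06%) and 126 rose (1.81%). The 95% interval of the TC32 change lay within 0.5 of zero in 328 of the 339, which again follows largely from the lack of a call. RRM2, the regulated subunit of ribonucleotide reductase, read 6.90, 6.73 and 6.71 with siPRKDC against 6.39, 6.57 and 6.59 with siNeg in TC32, and 5.87, 5.71 and 6.01 with siPRKDC against 7.03, 6.80 and 7.27 with siNeg in HCT116. In TC32 siPRKDC samples lay above siNeg with a change that was not called (0.26, adjusted p = 0.0691), and in HCT116 they lay below it. RRM2 fell by 1.17 in HCT116 (difference 1.43, SE 0.16, adjusted p = 8.43e-07). EXO1, a nuclease of DNA end resection and mismatch repair, read 7.38, 7.40 and 7.35 with siPRKDC against 7.09, 7.20 and 7.32 with siNeg in TC32, and 5.72, 5.91 and 5.75 with siPRKDC against 6.65, 6.72 and 6.47 with siNeg in HCT116. In TC32 its 0.18 was not called (adjusted p = 0.155), and in HCT116, where the groups were apart, it fell by 0.82. Its dimmer probe was called in both lines, at 0.28 in TC32 and -0.37 in HCT116. POLQ, the polymerase of end joining at short homologies, had log2 changes of 0.20 in TC32 and -0.66 in HCT116. FKBP5, a co-chaperone of the glucocorticoid receptor, had log2 changes of 0.17 in TC32 and -0.90 in HCT116, and DDX46, an RNA helicase of splicing, of 0.20 in TC32 and -0.78 in HCT116. DYNLL1, a light chain of dynein, had log2 changes of 0.10 in TC32 and -0.82 in HCT116, HIF1AN, an oxygen-dependent hydroxylase that inhibits HIF1A, of 0.28 in TC32 and -0.60 in HCT116, and FRMD8 of 0.01 in TC32 and -0.84 in HCT116.

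Among rises in HCT116 alone, DCLK1, a doublecortin-like kinase, read 4.67, 4.51 and 4.87 with siPRKDC against 4.72, 4.59 and 4.86 with siNeg in TC32, and 6.46, 6.60 and 6.30 with siPRKDC against 5.30, 5.37 and 5.0 with siNeg in HCT116. Its HCT116 groups were apart, and its TC32 groups, which were dim, overlapped (changes of -0.04 in TC32 and 1.23 in HCT116, difference -1.27, SE 0.16, adjusted p = 4.72e-06), and the difference on its dimmer probe was -0.63. NDRG1, a stress-responsive gene that is induced in hypoxia, read 4.88, 4.98 and 4.48 with siPRKDC against 5.01, 4.71 and 5.30 with siNeg in TC32, and 9.33, 9.20 and 9.49 with siPRKDC against 8.84, 8.55 and 8.42 with siNeg in HCT116. It was dim in TC32, where the groups overlapped, and it rose by 0.74 in HCT116 (difference -0.97, adjusted p = 0.000924). BCAR3, an adaptor of integrin signalling, had log2 changes of -0.23 in TC32 and 0.82 in HCT116, and KAT2B, a histone acetyltransferase, of -0.09 in TC32 and 0.83 in HCT116. PSAT1, an enzyme of serine synthesis, had log2 changes of -0.10 in TC32 and 0.71 in HCT116. SNX30, a sorting nexin, had log2 changes of -0.04 in TC32 and 0.78 in HCT116, and PPFIBP1, a liprin, of -0.25 in TC32 and 0.60 in HCT116. The dimmer PPFIBP1 probe was called in TC32 (-0.30) and not in HCT116 (0.31), with a called difference of -0.61. CA12, a membrane carbonic anhydrase, had log2 changes of -0.20 in TC32 and 0.79 in HCT116, but its dimmer probe gave 0.22 and 0.21 and no called difference (adjusted p = 0.95).

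**Figure D3:**
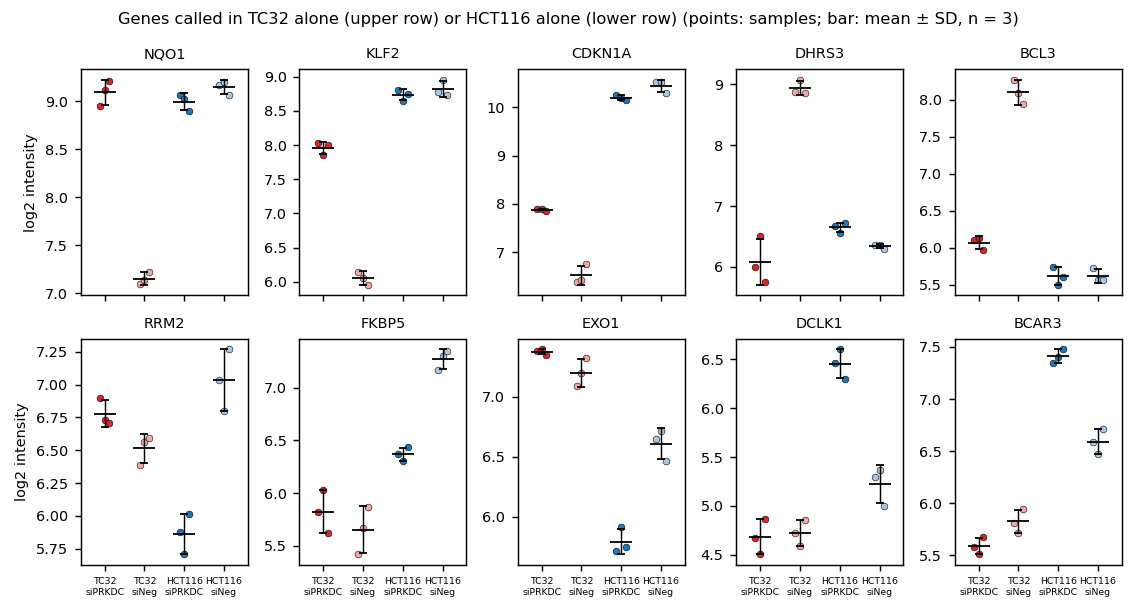
The log2 intensity of 10 genes called in 1 line is shown by sample, with the mean and SD (n = 3) of each group as bars. In the upper row the TC32 groups are apart and the HCT116 changes were not called, as for KLF2 (1.91 and -0.09). In the lower row the HCT116 groups are apart and the TC32 changes were not called, as for DCLK1 (-0.04 and 1.23).

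Of the 124 genes that moved the same way to unequal extents, 100 changed more in TC32 and 24 more in HCT116, and 54 rose (0.777%) while 70 fell (1.01%). This count was the least stable: it was 79 without HCT116 siPRKDC replicate 2, and 214, 212 and 214 without background correction, with an offset of 50 and in the authors' deposited values. ANXA1, a calcium-dependent phospholipid-binding protein, read 8.71, 8.60 and 8.44 with siPRKDC against 11.40, 11.52 and 11.43 with siNeg in TC32, and 9.43, 9.10 and 9.13 with siPRKDC against 10.08, 10.02 and 10.10 with siNeg in HCT116. All siPRKDC values were the low ones in both lines (changes of -2.86 in TC32 and -0.85 in HCT116, difference -2.01, SE 0.14, adjusted p = 1.21e-09). JUN, an AP-1 subunit, read 7.26, 7.25 and 7.19 with siPRKDC against 6.94, 6.66 and 6.94 with siNeg in TC32, and 6.95, 6.96 and 7.0 with siPRKDC against 5.74, 5.60 and 5.67 with siNeg in HCT116. Its siPRKDC samples were higher in both lines, and the rise was 0.38 in TC32 and 1.30 in HCT116, a difference of -0.92 (SE 0.13, adjusted p = 1.92e-05). SDHAF2, an assembly factor of succinate dehydrogenase, had log2 changes of -0.35 in TC32 and -1.10 in HCT116, and the small Cajal body RNA SCARNA13 of 0.42 in TC32 and 1.05 in HCT116.

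The DNA replication list held 32 described genes, most of which fell in HCT116. Of the 32, 19 differences were called (59.4%, against 34.5% over all genes), all 19 more positive in TC32. In TC32, 9 of the 32 rose and 4 fell. In HCT116, 0 rose and 23 fell. The median change was 0.11 in TC32 and -0.41 in HCT116, against 0.03 and -0.01 over all genes, with a median difference of 0.47 against 0.05. Of the called genes, 7 had opposite signs, 9 were called in HCT116 alone and 2 in TC32 alone. POLA1, the catalytic subunit of DNA polymerase alpha, which starts each new strand, read 6.58, 6.66 and 6.77 with siPRKDC against 5.96, 5.91 and 5.98 with siNeg in TC32, and 6.08, 6.02 and 6.10 with siPRKDC against 6.55, 6.38 and 6.35 with siNeg in HCT116. Its groups did not overlap in either line (changes of 0.72 in TC32 and -0.36 in HCT116, difference 1.08, adjusted p = 1.55e-06). GINS2, of the replicative helicase, read 7.50, 7.46 and 7.65 with siPRKDC against 6.94, 7.03 and 7.06 with siNeg in TC32, and 7.89, 8.05 and 7.93 with siPRKDC against 8.34, 8.45 and 8.36 with siNeg in HCT116, again apart in both lines and in opposite orders (difference 0.95, adjusted p = 8.5e-06). CDC45 and CDT1, which load or activate that helicase, had log2 changes of 0.04 in TC32 and -0.63 in HCT116 and of 0.14 in TC32 and -0.65 in HCT116. FEN1, which trims Okazaki fragments, had log2 changes of 0.27 in TC32 and -0.53 in HCT116, and MCM10 of 0.49 in TC32 and -0.32 in HCT116. The percentages of the other lists are to be read against the same 34.5%, and a share near it is no result about the list. Over all genes, 20.1% had a more positive and 14.4% a more negative called difference. In every list, rises and falls within a line are to be read against the shares over all genes. These were 26.5% up and 22.3% down in TC32, and 9.06% up and 12.4% down in HCT116.

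Many mitotic genes fell in each line. Of 34 genes of G2/M and mitosis, 19 fell and 3 rose in TC32, and 21 fell and 0 rose in HCT116. The median changes were -0.30 and -0.37, and the difference was called in 10 (29.4%), 8 more positive and 2 more negative in TC32. CENPM, of the centromere, had log2 changes of 0.47 in TC32 and -0.45 in HCT116, and CENPF, of the kinetochore, of 0.47 in TC32 and -0.28 in HCT116. AURKA, a mitotic kinase, fell in both lines, by 0.93 in TC32 and 0.44 in HCT116, but its second probe gave -1.19 and -0.31, and without TC32 siPRKDC replicate 3 the difference was not called (-0.39, adjusted p = 0.0592). CDK1 had log2 changes of -0.04 in TC32 and -0.77 in HCT116 on its brightest probe, with no called difference on the other (0.05, adjusted p = 0.82).

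Among 14 genes of homologous recombination and the Fanconi anaemia pathway, which repair breaks and crosslinks, 6 differences were called (42.9%), 5 more positive and 1 more negative in TC32. In TC32 4 of the 14 fell and 2 rose, and in HCT116 8 fell and 1 rose, with median changes of 0.02 in TC32 and -0.33 in HCT116. BLM, a helicase, had log2 changes of 0.06 in TC32 and -0.77 in HCT116. BARD1, the partner of BRCA1, had log2 changes of 0.22 in TC32 and -0.36 in HCT116, and FANCL, a ubiquitin ligase, of 0.37 in TC32 and -0.44 in HCT116. Of 7 genes of DNA-PK and end joining, 3 differences were called (42.9%), 2 more positive (PRKDC among them) and 1 more negative. The negative one was TDP1, which removes protein stuck to DNA ends. TDP1 had log2 changes of -0.53 in TC32 and 0.18 in HCT116, but its other probes gave differences of the other sign (0.42 and 0.36). Of 14 PI3K-like kinases and checkpoint genes, 4 differences were called (28.6%), all more positive in TC32. TOPBP1, an activator of ATR, had log2 changes of 0.41 in TC32 and -0.24 in HCT116. SMG1, a kinase of nonsense-mediated decay, had log2 changes of 0.41 in TC32 and -0.16 in HCT116, and TRRAP, a cofactor of histone acetylation, of 0.45 in TC32 and -0.03 in HCT116.

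G1 regulators and p53 targets moved in mixed ways. Of 14 G1 cyclins, their kinases and RB family genes, 8 differences were called (57.1%), 7 more positive and 1 more negative in TC32. CCND1, the cyclin that starts G1 progression and a target of EWS-FLI1 in Ewing sarcoma, read 10.74, 10.95 and 10.84 with siPRKDC against 10.98, 10.82 and 10.90 with siNeg in TC32, and 10.80, 10.75 and 10.72 with siPRKDC against 10.25, 10.14 and 10.19 with siNeg in HCT116. The TC32 groups overlapped, and the HCT116 siPRKDC samples were all above siNeg (changes of -0.05 in TC32 and 0.56 in HCT116, difference -0.62, SE 0.13, adjusted p = 0.000783). CDK2 fell in both lines, by 0.98 in TC32 and 1.5 in HCT116. E2F4 had log2 changes of 0.24 in TC32 and -0.22 in HCT116. Of 14 p53 targets, 4 differences were called (28.6%), 2 each way. BAX, which permeabilizes mitochondria in apoptosis, had log2 changes of 1.05 in TC32 and 0.00 in HCT116, while on its dimmer probe the difference of 0.37 was not called (adjusted p = 0.18). PMAIP1, a BH3-only protein, had log2 changes of -0.26 in TC32 and 0.55 in HCT116, and on its dimmer probe of -0.30 in TC32 and 0.30 in HCT116, of which the value in TC32 alone was called. ZMAT3 had log2 changes of -0.41 in TC32 and 0.11 in HCT116, but 1 of its other probes gave a called difference of the other sign (0.72), so its direction depended on the probe.

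The integrated stress response raises translation of the transcription factor ATF4 when amino acids run short or the endoplasmic reticulum is strained, and ATF4 in turn raises genes of amino acid synthesis, transport and tRNA charging. It binds C/EBP-ATF response elements, for which the motif TGATGNAAN was searched on both strands of the promoter windows (250 bases before to 50 after the start, RefSeq, GRCh38.p14). Of the 24 described genes of the list, 20 had a promoter in the table and 4 held the motif, against 3.67% of all 27305 promoters and 1.72% of the 5800 promoters of described genes. These 4 are shown, with the motif in capitals (read on the opposite strand in SLC3A2), because they bear on the amino acid genes described next. They are ASNS at chr7:97872359-97872658 (minus strand), ATF3 at chr1:212565157-212565456 (plus strand), SLC3A2 at chr11:62881449-62881748 (plus strand) and SLC7A1 at chr13:29595639-29595938 (minus strand).
ASNS: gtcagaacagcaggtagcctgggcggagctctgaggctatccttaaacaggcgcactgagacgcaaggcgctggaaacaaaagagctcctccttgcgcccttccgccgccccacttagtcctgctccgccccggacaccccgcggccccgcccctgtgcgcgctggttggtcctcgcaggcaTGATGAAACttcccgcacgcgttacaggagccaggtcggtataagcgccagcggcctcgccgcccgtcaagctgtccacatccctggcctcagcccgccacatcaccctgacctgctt
ATF3: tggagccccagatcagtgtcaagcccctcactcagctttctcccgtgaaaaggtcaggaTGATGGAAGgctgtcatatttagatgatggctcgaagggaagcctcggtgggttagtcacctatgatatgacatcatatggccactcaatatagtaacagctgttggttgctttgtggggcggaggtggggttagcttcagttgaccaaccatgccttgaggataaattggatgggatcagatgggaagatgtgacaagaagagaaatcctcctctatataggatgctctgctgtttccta
SLC3A2: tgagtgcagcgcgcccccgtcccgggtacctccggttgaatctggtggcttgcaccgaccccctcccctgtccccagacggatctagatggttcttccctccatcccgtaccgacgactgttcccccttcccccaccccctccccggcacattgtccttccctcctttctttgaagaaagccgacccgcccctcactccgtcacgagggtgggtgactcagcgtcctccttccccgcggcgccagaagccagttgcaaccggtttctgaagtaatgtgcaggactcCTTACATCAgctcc
SLC7A1: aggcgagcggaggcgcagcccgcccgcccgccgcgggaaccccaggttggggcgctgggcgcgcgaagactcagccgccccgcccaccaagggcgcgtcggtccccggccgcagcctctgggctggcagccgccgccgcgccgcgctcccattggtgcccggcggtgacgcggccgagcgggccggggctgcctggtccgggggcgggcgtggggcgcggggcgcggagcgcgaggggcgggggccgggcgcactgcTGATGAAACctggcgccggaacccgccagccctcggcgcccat

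In the ATF4 and amino acid response list, more genes fell than rose in TC32, and more rose than fell in HCT116. The difference was called in 15 of 24 genes (62.5%), 13 more negative and 2 more positive in TC32. In TC32, 13 fell and 4 rose, and in HCT116 6 rose and 1 fell, with median changes of -0.40 and 0.20 and a median difference of -0.58. The genes with the motif did not move together: besides ASNS (difference -1.54), ATF3, a stress-induced factor, had log2 changes of -0.27 in TC32 and 0.53 in HCT116 (adjusted p = 0.000597), whereas the transporter genes SLC3A2 (0.09) and SLC7A1 (-0.17) had no called difference on their brightest probes. The second SLC3A2 probe had a called difference of 0.76 (adjusted p = 0.0025), with 1.04 in TC32, which was called, and 0.28 in HCT116, which was not, and so had the average of its probes (0.42). ATF4 itself had log2 changes of -0.67 in TC32 and 0.21 in HCT116 on its brightest probe, and of its other probes 1 gave a difference of the same sign (-0.37) and 1, not detected on all 12 arrays, of the other (0.46, adjusted p = 0.06). When the kept probes of each gene were averaged, ATF4 missed the threshold (-0.27, adjusted p = 0.0881).

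CTH, which makes cysteine, read 5.13, 4.91 and 4.67 with siPRKDC against 6.52, 6.64 and 5.88 with siNeg in TC32, and 4.95, 4.81 and 4.94 with siPRKDC against 4.92, 4.99 and 4.68 with siNeg in HCT116. The siPRKDC values were below siNeg in TC32 and overlapped with it in HCT116, where the gene was dim (difference -1.48, SE 0.21, adjusted p = 1.62e-05), and both of its dimmer probes gave smaller called differences (-0.66 and -0.78). TRIB3, a pseudokinase that ATF4 induces, read 5.86, 5.84 and 5.96 with siPRKDC against 7.42, 7.30 and 7.08 with siNeg in TC32, and 6.55, 6.62 and 6.43 with siPRKDC against 6.45, 6.65 and 6.38 with siNeg in HCT116, apart in TC32 and overlapping in HCT116 (difference -1.42, SE 0.15, adjusted p = 2.52e-07). PHGDH, the entry enzyme of serine synthesis, had log2 changes of -0.84 in TC32 and 0.18 in HCT116, and MTHFD2, of mitochondrial one-carbon metabolism, of -0.85 in TC32 and 0.20 in HCT116. DDIT4, an inhibitor of mTORC1 signalling, had log2 changes of -0.91 in TC32 and 0.11 in HCT116.

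The cytosolic aminoacyl-tRNA synthetases, which charge tRNAs with amino acids and many of which ATF4 induces, divided in a similar way. The difference was called in 12 of 18 (66.7%), 10 more negative and 2 more positive in TC32. In TC32 11 fell and 2 rose, and in HCT116 0 fell and 3 rose, with median changes of -0.44 and 0.13. GARS1, the glycyl enzyme, read 8.75, 8.71 and 8.73 with siPRKDC against 9.69, 9.52 and 9.26 with siNeg in TC32, and 9.03, 8.80 and 8.80 with siPRKDC against 8.50, 8.57 and 8.42 with siNeg in HCT116. Its siPRKDC values were below siNeg in TC32 and above it in HCT116 (changes of -0.77 in TC32 and 0.38 in HCT116, difference -1.15, SE 0.15, adjusted p = 5.2e-06). IARS1 and TARS1 also had opposite signs, at -0.48 in TC32 and 0.29 in HCT116 and at -0.47 in TC32 and 0.39 in HCT116. YARS1 had log2 changes of -0.87 in TC32 and 0.19 in HCT116, MARS1 of -0.85 in TC32 and 0.15 in HCT116 and AARS1 of -0.86 in TC32 and -0.10 in HCT116, each called in TC32 alone.

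**Figure D4:**
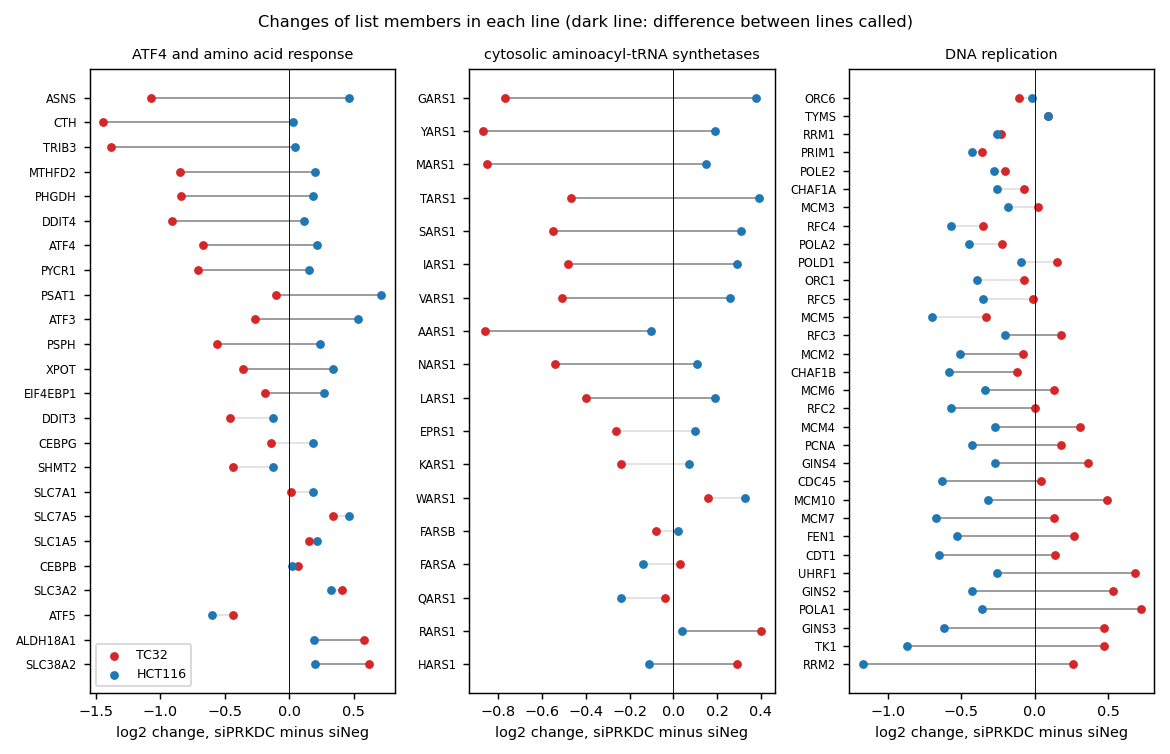
Log2 changes (siPRKDC minus siNeg) of every described gene of 3 lists are shown, TC32 in red and HCT116 in blue, joined by a dark line where the difference between the lines was called. In the ATF4 and amino acid response and tRNA synthetase lists, red points of called genes lie mostly left of blue ones (13 of 15 and 10 of 12). In the DNA replication list all 19 called genes have red right of blue.

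Most ribosome biogenesis genes, which make and process ribosomal RNA in the nucleolus, rose in TC32. Of 29 genes, 17 rose and 1 fell there (over all genes 26.5% rose and 22.3% fell), while in HCT116 2 rose and 1 fell. The median change was 0.32 in TC32 and -0.01 in HCT116, and 12 differences were called (41.4%), 10 more positive and 2 more negative in TC32. NOP56, a core protein of small nucleolar ribonucleoproteins, read 9.25, 9.18 and 9.24 with siPRKDC against 8.23, 8.35 and 8.27 with siNeg in TC32, and 9.32, 9.07 and 9.06 with siPRKDC against 9.21, 9.30 and 9.35 with siNeg in HCT116. The TC32 groups were apart and the HCT116 groups overlapped (difference 1.07, SE 0.13, adjusted p = 2.68e-06). BOP1 and RRS1, of large subunit assembly, had log2 changes of 0.95 in TC32 and 0.11 in HCT116 and of 0.72 in TC32 and -0.09 in HCT116. NOP14, of small subunit assembly, had log2 changes of 0.62 in TC32 and -0.12 in HCT116, although the difference of 0.46 on its dimmer probe was not called (adjusted p = 0.12). PES1, a partner of BOP1, had log2 changes of 0.33 in TC32 and -0.14 in HCT116. POLR1C, a subunit of RNA polymerases I and III, had log2 changes of 0.85 in TC32 and -0.04 in HCT116, with a difference of 0.33 on its second probe that was not called (adjusted p = 0.072). The E-box CACGTG, which MYC binds, was found in 5 of 22 promoters of the list, against 7.43% of all promoters and 11% of those of described genes. Of its carriers, NOP14, NOP2 and PES1 rose in TC32, while BYSL (0.04) and FBL (-0.16) had no called change there. The promoters of NOP56 and POLR1C held none. The part of the E-box in these changes was not tested. Of 44 genes of cytosolic ribosomal proteins, the constituents of the finished ribosome, 3 differences were called (6.82%, against 34.5% over all genes), RPS23 (1.39), RPL28 (0.75) and RPS7 (-0.64). Ribosomal protein genes have many processed pseudogenes, so their probes may read more than 1 locus.

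NRF2 targets, which detoxify quinones and peroxides, rose more often than they fell in TC32. Of 16 genes, 8 rose and 3 fell there, and in HCT116 1 rose and 1 fell, with median changes of 0.29 in TC32 and -0.03 in HCT116. The difference was called in 8 (50%), 7 more positive and 1 more negative. TXNRD1, the cytosolic thioredoxin reductase, read 8.41, 8.36 and 8.26 with siPRKDC against 7.12, 7.14 and 7.03 with siNeg in TC32, and 7.42, 7.55 and 7.41 with siPRKDC against 7.28, 7.14 and 7.42 with siNeg in HCT116. Its groups were apart in TC32 and overlapped in HCT116 (difference 1.06, SE 0.13, adjusted p = 3.19e-06). SRXN1, the sulfiredoxin, had log2 changes of 0.94 in TC32 and 0.13 in HCT116. FTL, the ferritin light chain, had opposite signs, at 0.35 in TC32 and -0.41 in HCT116, on this probe and on its second (0.60 and -0.36).

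Cytosolic chaperones had called differences in both directions. Of 14 cytosolic heat shock genes, 9 differences were called (64.3%), 6 more positive and 3 more negative in TC32. HSPA1B, a stress-inducible HSP70, had log2 changes of 0.78 in TC32 and -0.43 in HCT116; it is a near-identical copy of HSPA1A, so the probe may read both. HSPH1, a nucleotide exchange factor of HSP70, had log2 changes of 0.50 in TC32 and -0.22 in HCT116, DNAJA1, a J-domain co-chaperone, of 0.33 in TC32 and -0.28 in HCT116, and HSPA8, the constitutive HSP70, of 0.17 in TC32 and -0.34 in HCT116. The HSPA8 change was called in HCT116 alone on this probe and in TC32 alone on its second (0.44, against -0.04 in HCT116), with a called difference on both. Of 16 genes of endoplasmic reticulum folding, 8 rose and 1 fell in TC32, 0 rose and 1 fell in HCT116, and 3 differences were called (18.8%). HSPA5, the HSP70 of the endoplasmic reticulum, had log2 changes of 0.38 in TC32 and -0.16 in HCT116, and DERL1, a channel component of protein retrotranslocation, of 0.50 in TC32 and -0.02 in HCT116.

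Immediate early genes and MAPK feedback regulators split by gene. Of 20 genes, 11 rose and 2 fell in TC32, 5 rose and 3 fell in HCT116, and 10 differences were called (50%), 6 more positive and 4 more negative in TC32. Beside EGR1, KLF2, IER3 and JUN above, DUSP6, a phosphatase of ERK, had log2 changes of 1.04 in TC32 and 0.10 in HCT116. FOS, a partner of JUN in AP-1, fell in both lines, at -0.84 in TC32 and -0.42 in HCT116, opposite to JUN. Of 8 genes of ID, BMP and TGF-beta feedback, 4 differences were called (50%), 3 more positive and 1 more negative. ID3, an inhibitor of helix-loop-helix factors, had log2 changes of -0.38 in TC32 and -0.94 in HCT116. BAMBI, a pseudoreceptor of BMP and TGF-beta, had log2 changes of 0.59 in TC32 and -0.11 in HCT116, and SMAD3 of -0.27 in TC32 and 0.30 in HCT116.

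Most genes of the list that EWS-FLI1 represses fell in TC32. Of 15 such genes, 9 fell and 2 rose in TC32, against 1 that fell and 3 that rose in HCT116, with median changes of -0.47 and 0.00. The difference was called in 9 (60%), 8 more negative and 1, CDKN1A, more positive. CCN2, a matrix-associated target of YAP and TGF-beta, read 5.94, 5.95 and 5.95 with siPRKDC against 7.29, 7.35 and 7.32 with siNeg in TC32, and 5.62, 5.79 and 5.79 with siPRKDC against 5.52, 5.68 and 5.66 with siNeg in HCT116. TC32 siPRKDC samples came down close to HCT116 levels, and the HCT116 groups overlapped (changes of -1.37 in TC32 and 0.12 in HCT116, difference -1.49, SE 0.13, adjusted p = 1.49e-08). TNC, the matrix protein tenascin C, had log2 changes of -1.20 in TC32 and 0.00 in HCT116, and ACTA2, the smooth muscle actin, of -1.14 in TC32 and -0.02 in HCT116. TPM1, a tropomyosin, had opposite signs, at -0.64 in TC32 and 0.59 in HCT116, on this and on another probe (-0.53 and 0.73), while a further probe, not detected on all 12 arrays, showed no called difference (-0.09). Of 12 EWS-FLI1 activated genes, 6 differences were called (50%), 4 more negative and 2 more positive in TC32. In TC32 6 fell and 1 rose, and in HCT116 3 fell and 3 rose, with median changes of -0.25 and 0.00, so that in TC32 more genes fell than rose in both lists. UPP1, the uridine phosphorylase, had log2 changes of -0.46 in TC32 and 0.80 in HCT116, and STYXL1 of -1.16 in TC32 and -0.50 in HCT116.

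The actin, focal adhesion and YAP target list overlaps with the EWS-FLI1 repressed list. All 10 of its called differences among 25 genes (40%) were more negative in TC32. In TC32 11 fell and 2 rose, and in HCT116 1 fell and 7 rose, with median changes of -0.21 and 0.06. TAGLN2, an actin-binding transgelin, had log2 changes of -1.18 in TC32 and 0.23 in HCT116, and a smaller called difference on its second probe (-0.60). CCN1, a matricellular YAP target, had log2 changes of -0.24 in TC32 and 0.59 in HCT116, and ITGA5, the alpha subunit of the fibronectin receptor, of -0.47 in TC32 and 0.29 in HCT116. Of 6 Ewing sarcoma, neural and mesenchymal markers, 4 differences were called (66.7%), 3 more positive and 1 more negative. CD99, a surface marker of Ewing sarcoma, had log2 changes of 0.47 in TC32 and 0.03 in HCT116. TUBB3, a neuronal tubulin, had log2 changes of 0.73 in TC32 and -0.03 in HCT116, and the intermediate filament gene VIM of -0.47 in TC32 and 0.15 in HCT116. MAPT, the neuronal tau gene, had log2 changes of 0.51 in TC32 and -0.02 in HCT116, while its dimmer probe gave a difference of 0.09 that was not called. The epithelial and colon list and the blood, endothelial and fibroblast list each had 1 described gene, neither with a called difference.

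Most interferon response and MHC class I genes fell in TC32. Of 14 genes, 8 fell and 1 rose in TC32, and 1 fell and 1 rose in HCT116, with median changes of -0.36 and 0.03. All 6 called differences (42.9%) were more negative in TC32. HLA-E, a ligand of natural killer cell receptors, read 6.06, 6.08 and 6.12 with siPRKDC against 7.01, 6.94 and 7.04 with siNeg in TC32, and 7.48, 7.27 and 7.40 with siPRKDC against 7.38, 7.37 and 7.36 with siNeg in HCT116. The TC32 groups were apart and the HCT116 groups overlapped (difference -0.92, SE 0.12, adjusted p = 7.91e-06). HLA-B had log2 changes of -0.92 in TC32 and -0.09 in HCT116, and its probe may read other class I genes of near-identical sequence. ISG15, a ubiquitin-like modifier, had log2 changes of -0.91 in TC32 and 0.19 in HCT116. IFITM2 and IFITM3, which restrict virus entry and are close paralogs, had log2 changes of -0.92 in TC32 and 0.23 in HCT116 and of -0.99 in TC32 and 0.17 in HCT116.

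Metabolic lists were mixed. Of 28 genes of glycolysis and hypoxia, 13 differences were called (46.4%), 5 more positive and 8 more negative in TC32. PFKP, the platelet isoform of phosphofructokinase, read 7.71, 7.63 and 7.63 with siPRKDC against 8.57, 8.71 and 8.67 with siNeg in TC32, and 9.56, 9.39 and 9.34 with siPRKDC against 9.13, 9.11 and 9.14 with siNeg in HCT116. Its siPRKDC samples were all below siNeg in TC32 and all above it in HCT116 (changes of -0.99 in TC32 and 0.30 in HCT116, difference -1.29, SE 0.13, adjusted p = 1.34e-07). ALDOC, an aldolase, had log2 changes of -1.45 in TC32 and -0.17 in HCT116, PFKFB3, which makes an activator of phosphofructokinase, of -0.86 in TC32 and -0.22 in HCT116, and P4HA2, a collagen prolyl hydroxylase, of -0.65 in TC32 and 0.05 in HCT116. A second PFKFB3 probe and 1 of 2 dimmer P4HA2 probes gave differences that were not called (-0.19 and -0.32). In the other direction, the glucose transporter gene SLC2A1 had log2 changes of 0.75 in TC32 and -0.17 in HCT116, and VEGFA, the angiogenic growth factor, of 0.79 in TC32 and -0.04 in HCT116, with a difference of 0.09 on its dimmer probe that was not called. Of 45 oxidative phosphorylation genes, 16 fell and 4 rose in TC32, and 2 fell and 4 rose in HCT116, with median changes of -0.18 and 0.03. The difference was called in 15 (33.3%), 13 more negative and 2 more positive, where over all genes 14.4% were more negative and 20.1% more positive. Over the alternatives the count of more negative genes ran from 10 to 21. It was 20 without background correction and 21 in the authors' deposited log2 values. SDHD, a membrane anchor of complex II, had log2 changes of -0.97 in TC32 and -0.21 in HCT116, and ATP5F1C, of ATP synthase, of -0.45 in TC32 and 0.29 in HCT116. NDUFA6, of complex I, went the other way, at 0.51 in TC32 and -0.34 in HCT116. UQCRB, of complex III, had log2 changes of -0.77 in TC32 and 0.16 in HCT116, but its dimmer probe gave a difference of 0.28 that was not called (adjusted p = 0.12).

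The cholesterol and proteasome lists had called differences in both directions. Of 19 genes of cholesterol and fatty acid synthesis, 6 differences were called (31.6%), 2 more positive and 4 more negative. The lipogenic factor SREBF1 had log2 changes of -0.86 in TC32 and -0.03 in HCT116, while its dimmer probe gave -0.31 and -0.27, with no called difference (-0.03, adjusted p = 0.91). MSMO1, a sterol oxidase, had log2 changes of -0.32 in TC32 and 0.24 in HCT116. Its second probe detected on all 12 arrays gave a called difference of -0.57, and a further, dimmer one gave 0.01, which was not called (adjusted p = 0.97). Of 30 proteasome genes, 6 were called (20%), 4 more positive and 2 more negative. PSME3, a nuclear proteasome activator, had opposite signs, at 0.62 in TC32 and -0.49 in HCT116. PSMA2 had log2 changes of 0.72 in TC32 and 0.09 in HCT116 and PSMC3 of 0.48 in TC32 and -0.21 in HCT116. PSMB3 is an example of a shared response, with -1.18 in TC32 and -1.06 in HCT116 and a difference of -0.12 that was not called (95% interval -0.41 to 0.16, adjusted p = 0.527).

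Structural RNAs had the largest share of called differences of the lists described. Of 11 ribosomal and spliceosomal RNAs, 9 rose and 0 fell in TC32, 5 rose and 0 fell in HCT116, and 9 differences were called (81.8%), all more positive in TC32, with median changes of 1.6 in TC32 and 0.27 in HCT116. RNA28SN5, the 28S ribosomal RNA, read 10.34, 10.15 and 10.07 with siPRKDC against 6.80, 7.12 and 7.45 with siNeg in TC32, and 7.50, 7.82 and 7.62 with siPRKDC against 6.53, 7.38 and 6.98 with siNeg in HCT116. All siPRKDC samples lay above siNeg in both lines, and the siNeg replicates were themselves spread. The difference was 2.38 (SE 0.23, adjusted p = 1.29e-07), and 1.45 on its second probe. These are probe intensities of labelled cRNA, and whether they follow the amounts of the structural RNAs was not tested. RNA18SN5 had log2 changes of 1.39 in TC32 and 0.05 in HCT116, RNA5S9, the 5S RNA, of 2.28 in TC32 and 0.57 in HCT116, and RN7SK, which holds the elongation factor P-TEFb inactive, of 1.44 in TC32 and 0.27 in HCT116. The U1 genes RNU1-1, RNU1-3, RNVU1-7 and RNVU1-18 had differences of 1.40, 1.96, 1.98 and 2.04, but they are near-identical copies that a probe may not tell apart. TC32 siPRKDC samples also had the fewest detected probes of the 4 groups (15396 to 16216), and the part of this in the structural RNAs and in the other results was not tested. Of 9 histone transcripts, 6 rose and 0 fell in TC32, and 4 differences were called (44.4%), all more positive in TC32. H2AC20 had log2 changes of 0.74 in TC32 and -0.07 in HCT116 and H2AZ1, a replacement variant, of 0.37 in TC32 and -0.09 in HCT116.

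**Figure D5:**
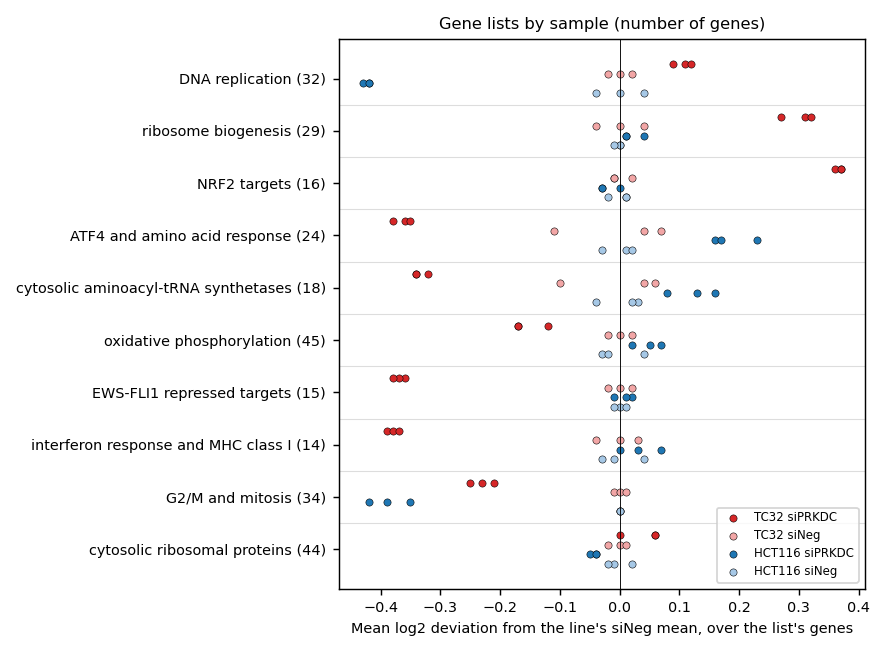
For 10 lists, each point is the mean over the list's described genes of 1 sample's deviation from the siNeg mean of its line, on the log2 scale. TC32 siPRKDC samples lie right of zero for ribosome biogenesis and NRF2 targets and left of it for the ATF4, tRNA synthetase, EWS-FLI1 repressed and interferon lists, where HCT116 siPRKDC samples lie near zero or to the right. For DNA replication TC32 siPRKDC samples lie to the right (0.09 to 0.12) and HCT116 siPRKDC samples to the left (-0.43 to -0.42), and for mitosis both lie to the left.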

How the data were processed

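Total RNA of 12 samples (2 cell lines) was labelled as biotinylated cRNA and read on 1-colour BeadChips, per the labels. The deposited intensities, 47322 probes per array, are linear and had not been background-corrected or normalized. A detection p-value accompanies each, per the file headers. The authors also deposited log2 values, used here only as an alternative, and the submitters' processing notes name GenomeStudio, R 3.0.2 and lumi.

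In R 4.3.3 with limma 3.58.1, neqc corrected the background inferred from detection p-values, with an offset of 16, quantile normalization over 12 arrays and a log2 scale. A group in which all 3 arrays detected a probe (p below 0.05) sufficed to keep it (16555 probes), of which 13396 had 1 gene in the platform annotation. Symbols were updated through the RefSeq table of GRCh38.p14 (30074 of 30113 matched). Each of 10386 genes was represented by its brightest kept probe. A cell-means model of the 4 groups was fitted with limma, with 8 residual and 13.5 prior degrees of freedom. Two-sided p-values received Benjamini-Hochberg adjustment over all 10386 genes of a comparison, and calls were made below 0.05. An exact permutation test of 3 against 3 samples cannot pass that threshold and was not used. The number of arrays limits the precision. The fit was tested on simulated data in which differences were put into a small share of genes, in the TC32 siPRKDC group only. That setting differs from these data, so the test does not give the error rate here. No slide or batch was given in the sources used here.

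The genes described, their lists, the naming rule and the alternatives were chosen with earlier results of these data known, so no list is independent evidence of its direction. The rule named PRKDC, EWSR1 and FLI1, the genes with the largest called differences in each direction of each kind (10 with opposite signs, 8 in 1 line, 4 with the same sign), and up to 4 called members of each list with the smallest p. For the kinds with opposite signs and with a call in TC32 alone, siPRKDC and siNeg values also had to be without overlap in each line called. Genes of a locus name were passed over. ATF4, DDIT4, MTHFD2, ATF3, SLC3A2, SLC7A1, FEN1, MCM10, CDT1, CDC45, AARS1, TARS1, ACTA2, ITGA5, CCN1, HLA-B, SLC2A1, VEGFA, NOP14, PES1, CDK2, DUSP6, FOS, AURKA, RN7SK, RNA18SN5, RNA5S9, RNU1-1 and PSMB3 fall outside it, chosen once their values had been seen. Alternatives changed the background correction, offset, normalization, probe choice, filter and variance model, and left out each sample in turn.

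Replicate numbers are shared between groups. Same-numbered samples correlated in their deviations by 0.0208, 0.08 and 0.166 in TC32 and 0.00548, 0.0904 and 0.0773 in HCT116, all positive. Different-numbered samples correlated by -0.117 to 0.0489 in TC32 and -0.099 to 0.0193 in HCT116. These small values do not settle whether the numbers pair samples. The main fit did not pair them, and a fit with the replicate block was 1 of the alternatives.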

Additional observations from a re-analysis of the deposited data

Results flagged for a closer look

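The response to siPRKDC differed between TC32 and HCT116 in 2398 genes, by the test of the difference itself, and the largest absolute values of these are described above. Opposite changes in TC32 and HCT116 were called in both lines for 251 genes. PRKDC itself differed by 1.25 on the log2 scale, with the larger fall in HCT116, on 1 of its 3 probes, the only one detected on all 12 arrays. EWSR1 differed by 0.69, with the same sign on all 3 of its probes. Outside the genes, 1779 probes that the platform annotation pairs with no gene or with several were detected on all 12 arrays, and 411 of them had a called difference (23.1%), with values between -2.15 and 2.98.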

How the results depend on the processing

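Over 13 processing alternatives and 12 that left out 1 sample, the count of called differences ran from 2142 to 2678 (2398 as reported), that of opposite changes from 177 to 344, that of changes called in TC32 alone from 1380 to 1608 and that in HCT116 alone from 262 to 413. All 251 opposite genes kept opposite signs in both lines in every alternative that tested them all, except 1 with the mean of all kept probes, but 168 to 251 of them kept every call. The count with equal signs and unequal extents was 124, and it was 214 without background correction, 212 with an offset of 50, 214 in the authors' deposited log2 values, and 79 to 129 with 1 sample left out, the lowest without HCT116 siPRKDC replicate 2. Differences of at least 1 on the log2 scale numbered 261, and 52, 78 and 49 in the first 3 of these alternatives. The reason for these lower counts was not tested. The positive share of called differences was 50.4% with cyclic loess and 52.2% with median scaling, against 58.2%. With the replicate block, which treats same-numbered samples as paired, 2450 differences and 277 opposite changes were called, with 1574 in TC32 alone, 346 in HCT116 alone and 122 with equal signs. Of 174 genes chosen by the rule or named, 157 kept their call in every alternative that tested them (the stricter detection filter tested 165). TDP1 (0.02, adjusted p = 0.888) and ZMAT3 (0.05, adjusted p = 0.759) turned sign with the mean of all kept probes; both other TDP1 probes and 1 of the other ZMAT3 probes had the opposite sign. PRKDC (0.0596), ATF4 (0.0881), PTPN13 (0.0579) and RB1 (0.0673) lost their call in 1 processing alternative each (adjusted p). AURKA, H3-3A, PSME2, APTX, ATM, FADS1, H1-10, ID2, INSIG1 and XBP1 lost it in 1 to 10 alternatives, with a highest adjusted p of 0.11, and SLC3A2 gained it in 1. The cause was not tested. Of 541 other probes of called genes detected on all 12 arrays, 260 had a called difference of the same sign, 216 had the same sign without a call, and 65 had the opposite sign. Of the 2317 genes nearest background 27% were called, against 38.5% of the 2317 brightest.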
